A study of Homo sapiens with 8 samples.

Results

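The 10 genes RASSF1 to RASSF8, STK3 and STK4 were described among the 63677 genes counted in DND-41 and MOLT-4, established lines from human T-cell acute lymphoblastic leukaemia. They were taken by symbol, as the RASSF family and the MST kinases that bind it. RASSF1 and RASSF5 had 2 identifiers each, of which the one with the most counts was used, and the other had 0 counts in all 8 libraries. The family was chosen by the low RASSF2 level of treated DND-41 cells, so the RASSF2 values in that line are a description without a test. Both lines were grown in RPMI-1640 with serum and kept for 8 h in 100 nM ACBI-1 or in DMSO, the solvent control. ACBI-1 is a small molecule that recruits the VHL ubiquitin ligase to the BAF chromatin remodelling ATPases SMARCA2 and SMARCA4 and to PBRM1, so that these proteins are degraded. The labels name no genetic change in either line. Each of the 4 groups had 2 libraries of total RNA, with strand-specific paired-end reads of 100 bp. The labels do not say whether the libraries came from separate cultures, so p-values measure the spread between libraries, which may be technical.

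RASSF proteins carry a RAS-association domain that binds RAS-like GTPases. In the classical members, RASSF1 to RASSF6, a C-terminal SARAH domain also binds the SARAH domain of the kinases STK4 (MST1) and STK3 (MST2), which head the Hippo kinase module. The N-terminal members RASSF7 and RASSF8 lack the SARAH domain. In lymphocytes a short RASSF5 form, RAPL, joins active RAP1 to the integrin LFA-1 and to STK4, and inherited loss of STK4 causes T-cell lymphopenia. RASSF1 and RASSF2 are known as genes that tumours silence by promoter methylation.

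Among the members that passed the filter on low counts, RASSF2 had the lowest treated level relative to its control in both lines, and RASSF5 had the highest in DND-41. The 250 bases before the RefSeq starts of these genes (GRCh38.p14) are shown because these genes lie at both ends of the response in DND-41. Capitals mark CpG dinucleotides, the sites of DNA methylation, and each sequence runs 5′ to 3′ on the gene's strand. RASSF5 has 2 listed starts, and counts per gene do not separate them.
RASSF2, chr20:4815148-4815397, minus strand: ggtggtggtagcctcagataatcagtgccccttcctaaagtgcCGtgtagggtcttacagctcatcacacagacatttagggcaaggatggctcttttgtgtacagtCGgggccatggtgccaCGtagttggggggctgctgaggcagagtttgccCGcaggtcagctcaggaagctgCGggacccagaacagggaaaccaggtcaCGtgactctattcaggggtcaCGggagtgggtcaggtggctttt
RASSF5 upstream start, chr1:206507281-206507530, plus strand: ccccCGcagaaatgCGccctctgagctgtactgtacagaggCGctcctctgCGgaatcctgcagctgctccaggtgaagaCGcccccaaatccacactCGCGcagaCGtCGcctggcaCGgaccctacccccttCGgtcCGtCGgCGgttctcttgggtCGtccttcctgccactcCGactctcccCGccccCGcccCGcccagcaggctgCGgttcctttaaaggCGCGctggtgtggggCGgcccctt
RASSF5 downstream start, chr1:206556914-206557163, plus strand: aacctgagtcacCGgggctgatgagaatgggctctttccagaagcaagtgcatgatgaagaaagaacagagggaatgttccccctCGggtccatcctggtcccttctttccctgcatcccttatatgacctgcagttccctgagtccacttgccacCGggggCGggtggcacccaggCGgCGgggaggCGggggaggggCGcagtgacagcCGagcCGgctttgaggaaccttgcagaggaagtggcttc
The RASSF2 window had a GC content of 56.8% and 7 CpG sites. The upstream RASSF5 window had 67.6% and 23 CpG sites, and the downstream one had 60.8% and 10. The medians over 35116 RefSeq promoter windows of the same length were 58.0% and 11 sites. None of the 3 windows held TGTGGT (RUNX), TGGGAA (RBPJ) or CCGGAA (ETS) on either strand, and the shares of all windows that held them were 10.98%, 20.8% and 14.5%. The absence says only that these letters are not in these windows. The bases just past the RASSF2 start were found in 0 transcripts of RASSF2 in GENCODE 29, so its start may not be one used in these cells. In that annotation RASSF2 runs from 4780023 to 4823645 on the minus strand. The RASSF2 window therefore lies inside the annotated gene. Its CpG content does not describe the promoter at the annotated 5′ end. RefSeq windows were matched for 7 of the 10 members.

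The libraries held between 19860759 and 20239888 counts each, and 3 counts correspond to 0.15 CPM (counts of a gene relative to the library total). T-lineage markers were expressed in every library, with none of the 8 at 0 and a summed level of 4051 to 4497 CPM in DND-41 and 2618 to 2806 CPM in MOLT-4. Markers of myeloid and erythroid cells were at or near 0. Of the B-lineage markers, MS4A1 and PAX5 were at 0, and their summed level of 935 to 1585 CPM in DND-41 was nearly all CD79A. The replicate 2 libraries of MOLT-4 stood apart. Their 6 stromal and epithelial markers, with EPCAM and PECAM1 at 0, summed to 69.8 CPM in DMSO and 14.9 CPM in ACBI-1, against 3.93 and 0.688 CPM in replicate 1. Several MOLT-4 results are therefore also given without these 2 libraries. That fit leaves 1 library in each MOLT-4 group and takes its spread from DND-41. A call lost in it may reflect the smaller number of libraries, so its effect sizes are given. The part these markers have in any result was not tested. The degrader acts on protein, so the transcripts of its targets do not check the labels. SMARCA4 RNA rose by a log2 fold change of 0.34 in DND-41 and 0.19 in MOLT-4. SMARCA2 RNA fell in DND-41 (-0.19) and had no call in MOLT-4 (0.14). PBRM1 RNA had no call in DND-41 (0.06) and fell in MOLT-4 (-0.16).

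Levels are given as CPM, with library sizes scaled by TMM. A gene rose or fell where its adjusted p was below 0.05 in edgeR's quasi-likelihood test over all genes tested, with the Benjamini-Hochberg adjustment, and each log2 fold change sets ACBI-1 against DMSO, with its standard error (SE). In DND-41, 8 of the 10 members passed the filter on low counts. Besides RASSF2, 1 of the 7 others rose and 4 fell, where 20.0% of all 14008 tested genes rose and 23.2% fell (43.2% in all). In MOLT-4, 9 members passed the filter, of which 1 rose and 4 fell, where 20.7% of 14239 genes rose and 24.4% fell (45.1% in all). Without both replicate 2 libraries, the log2 fold changes of the members called in MOLT-4 were 0.20 (RASSF5), -3.11 (RASSF2), -1.80 (RASSF4), -0.65 (RASSF7) and -0.32 (STK3). The median log2 fold change was -0.33 over the 7 members besides RASSF2 in DND-41 and -0.31 over the 9 in MOLT-4, and over all genes it was 0.01 and 0.00. Of the 7 members besides RASSF2 that were tested in both lines, 3 (RASSF4, RASSF7 and STK3) fell in both, as 15.6% of genes did, and RASSF5 rose in both, as 12% of genes did (1546 of 12859). Bulk libraries cannot separate fewer cells that express a gene from less RNA per cell.

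**Figure D1:**
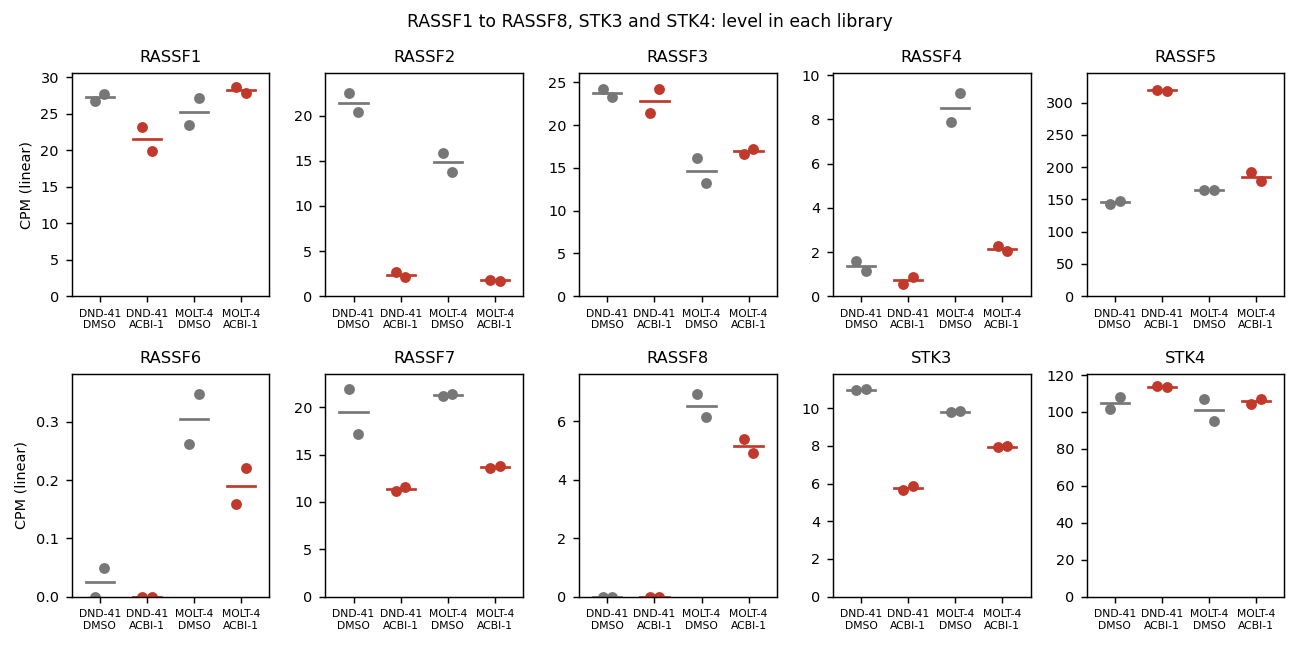
CPM (linear axis from 0) of each member in each library, as points, with a bar at the mean of the 2 libraries of a group, grey for DMSO and red for ACBI-1. The RASSF2 points of ACBI-1 lie between 1.65 and 2.68 CPM in both lines, below every DMSO point, and the RASSF5 points of DND-41 under ACBI-1 stand near 319 CPM.

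Among the classical members that were tested, RASSF2 had the lowest treated level relative to its control in both lines. RASSF2 binds STK3 and STK4 and promotes apoptosis when overexpressed. In DND-41 its level was 22.5 and 20.4 CPM in the DMSO libraries and 2.68 and 2.10 CPM in the ACBI-1 libraries, which rest on 474, 423, 56 and 46 counts. The groups lay far apart, at a log2 fold change of -3.15 ± 0.14 (SE, n = 2 libraries per group), or 8.90-fold lower, and 20 of the 14008 tested genes had a lower value. In MOLT-4, where its DMSO libraries stood at 15.9 and 13.7 CPM, the ACBI-1 libraries held 1.85 and 1.65 CPM. The fall in MOLT-4 was -3.08 ± 0.16 (SE, n = 2 per group, edgeR adjusted p = 7.03e-12). It was -3.11 without the replicate 2 libraries, with a single library left in each MOLT-4 group. Falls of at least 2-fold were called for 6.41% of the genes in DND-41 and 8.43% in MOLT-4. The treated RASSF2 levels were 12.5% and 9.79% of the DMSO mean in DND-41, and 12.5% and 11.1% in MOLT-4. The fitted difference between the lines, MOLT-4 minus DND-41, was 0.09 on the log2 scale, and -0.03 with scaling by library size alone. It rests on the DND-41 values and is given without a test.

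RASSF5, the RAP1 effector, was the member that rose, and it did so by different amounts in the lines. In DND-41 it stood at 143.1 and 147.5 CPM in DMSO and at 320.1 and 318.6 CPM in ACBI-1. Both treated libraries lay above 2 times the level of either control, with a log2 fold change of 1.15 ± 0.06 (SE, n = 2 per group, edgeR adjusted p = 1.30e-09), or 2.22-fold. Rises of at least 2-fold were called for 1.98% of the genes in DND-41 and 1.97% in MOLT-4, and 207 genes had a higher value in DND-41. In MOLT-4 the DMSO libraries had 165.3 and 164.4 CPM and the ACBI-1 libraries 192.1 and 177.8 CPM. These groups did not overlap, but the shift was small, at 0.16 ± 0.05 (adjusted p = 0.0208). This call ended in DESeq2 (adjusted p = 0.0556) and when libraries were scaled by size alone (0.08, adjusted p = 0.449). It also ended without MOLT-4 ACBI-1 replicate 1 (0.11) and without both replicate 2 libraries (0.20), where a group holds a single library. The effect in MOLT-4 minus that in DND-41 was -0.97 ± 0.08 (edgeR interaction test, adjusted p = 1.03e-07). The 3 members whose effect differed between the lines, RASSF5 (lower in MOLT-4) and RASSF1 and STK3 (higher), compare with 13.3% of all 15498 genes tested, 6.17% lower and 7.18% higher. The RASSF5 difference ran from -1.09 to -0.91 over the 16 alternatives tried, and it was called in all of them.

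RASSF4 fell most clearly in MOLT-4. It is a classical member whose product binds RAS. In MOLT-4 it stood at 7.87 and 9.18 CPM in DMSO and at 2.27 and 2.04 CPM in ACBI-1. The groups lay apart, with a log2 fold change of -1.99 ± 0.17 (SE, n = 2 per group, edgeR adjusted p = 1.61e-08), and -1.80 without the replicate 2 libraries. In DND-41 the gene was near the detection limit, with 34 and 24 counts in DMSO and 12 and 19 in ACBI-1. Its value there, -0.92 ± 0.35 (adjusted p = 0.0479), lost the call in DESeq2 (adjusted p = 0.276), with library size alone (0.0611), with no filter (0.0693), and without ACBI-1 replicate 1 (-0.66, 0.191), DMSO replicate 1 (0.372) or DMSO replicate 2 (0.0586) of that line. The difference between lines was -1.05 ± 0.40 and did not pass (adjusted p = 0.0929). RASSF4 shares 695 bp of its exons with DEPP1 on the opposite strand, and the strand setting of the counting is not given in the sources used here.

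RASSF1, a microtubule-binding scaffold and activator of STK3 and STK4, fell slightly in DND-41. Its level in DND-41 was 26.8 and 27.7 CPM in DMSO and 23.2 and 19.9 CPM in ACBI-1. Both treated libraries lay below both controls, with a log2 fold change of -0.33 ± 0.09 (SE, n = 2 per group, edgeR adjusted p = 0.00824), which DESeq2 did not call (adjusted p = 0.0647). In MOLT-4 it stood at 23.4 and 27.1 CPM in DMSO and at 28.7 and 27.8 CPM in ACBI-1. The treated libraries were both above the controls there, yet the value of 0.16 ± 0.08 did not pass (adjusted p = 0.133). Without MOLT-4 DMSO replicate 2 it was 0.27 with an adjusted p of 0.0154. The difference between lines was 0.50 ± 0.13 (edgeR interaction test, adjusted p = 0.0138). That call was lost in DESeq2 (0.49, adjusted p = 0.0810), with library size alone (0.38, 0.0908), and without DND-41 ACBI-1 replicate 2 (0.40, 0.0561), DND-41 DMSO replicate 2 (0.48, 0.0645), MOLT-4 ACBI-1 replicate 1 (0.49, 0.0623) or MOLT-4 DMSO replicate 1 (0.41, 0.0589). An antisense gene, RASSF1-AS1, overlaps 659 bp of the RASSF1 exons.

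RASSF3 and RASSF6 had no call. RASSF3, a classical member that promotes p53-dependent apoptosis, stood at 24.3 and 23.3 CPM in DMSO and 21.4 and 24.3 CPM in ACBI-1 in DND-41. These libraries overlapped, with a log2 fold change of -0.05 ± 0.09 and a 95% interval from -0.22 to 0.13. In MOLT-4, RASSF3 had 16.2 and 13.3 CPM in DMSO and 16.7 and 17.3 CPM in ACBI-1. The difference of 0.20 ± 0.10 did not pass (edgeR adjusted p = 0.123). It was 0.36 without MOLT-4 DMSO replicate 1 and 0.03 without both MOLT-4 replicate 2 libraries. RASSF6 was at the detection limit, with 0, 1, 0 and 0 counts in DND-41 and 5, 7, 3 and 4 counts in MOLT-4, in the order DMSO then ACBI-1. It was not tested.

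The N-terminal member RASSF7, which acts in mitotic spindle formation, fell in both lines. In DND-41 its level was 21.9 and 17.1 CPM in DMSO and 11.1 and 11.6 CPM in ACBI-1. In MOLT-4 it was 21.1 and 21.4 CPM in DMSO and 13.6 and 13.8 CPM in ACBI-1. No treated library reached a control in either line. The log2 fold changes were -0.77 ± 0.12 (SE, n = 2 per group, edgeR adjusted p = 1.14e-04) in DND-41 and -0.64 ± 0.09 (adjusted p = 9.14e-06) in MOLT-4. Their difference, 0.14 ± 0.15, had a 95% interval from -0.16 to 0.45. RASSF7 stayed called in every alternative tried in either line.

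RASSF8, the other N-terminal member, which acts at adherens junctions, was detected in MOLT-4 and not in DND-41. It had 0 counts in all 4 DND-41 libraries. In MOLT-4 it stood at 6.92 and 6.15 CPM in DMSO and at 5.39 and 4.90 CPM in ACBI-1. Relative to a floor of 3 counts over the DND-41 group, its level was at least 91.0-fold higher in MOLT-4 DMSO libraries, and at least 73.5-fold higher in ACBI-1 libraries. The MOLT-4 replicate 2 libraries, where the stromal markers were higher, had 6.15 CPM in DMSO and 4.90 CPM in ACBI-1. Whether these markers bear on the RASSF8 level was not tested. The effect of ACBI-1 in MOLT-4, -0.35 ± 0.15, did not pass (edgeR adjusted p = 0.0669), and it did with library size alone (-0.43, adjusted p = 0.0317). Its antisense neighbour RASSF8-AS1 had 1.89 and 1.84 CPM in MOLT-4 DMSO libraries and 0 in DND-41. RASSF9 and RASSF10, the remaining N-terminal members, had 0 counts in every library.

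Of the kinases, STK3 fell and STK4 had no call. STK3 in DND-41 stood at 10.95 and 11.01 CPM in DMSO and 5.64 and 5.84 CPM in ACBI-1. The treated libraries held 51.4% and 53.2% of the control mean, and the log2 fold change was -0.92 ± 0.12 (SE, n = 2 per group, edgeR adjusted p = 3.08e-05). In MOLT-4 the DMSO libraries had 9.81 and 9.83 CPM and the ACBI-1 libraries 7.93 and 7.98 CPM. Replicates lay close together and the groups apart, yet the call on -0.31 ± 0.12 (adjusted p = 0.0429) was marginal. It ended with no filter (adjusted p = 0.0697), with DESeq2 (0.382), without both replicate 2 libraries (-0.32, 0.220) and without MOLT-4 ACBI-1 replicate 1 (0.107), ACBI-1 replicate 2 (0.0964), DMSO replicate 1 (0.110) or DMSO replicate 2 (0.137). The difference between lines was 0.63 ± 0.16 (edgeR interaction test, adjusted p = 0.0144). That call was lost in DESeq2 (0.62, adjusted p = 0.192) and with library size alone (0.51, 0.0773). It was also lost without MOLT-4 DMSO replicate 2 (0.61) and without both MOLT-4 replicate 2 libraries.

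STK4, the more abundant kinase, stood at 101.7 and 108.3 CPM in DMSO and 114.1 and 113.4 CPM in ACBI-1 in DND-41. In MOLT-4 it had 107.3 and 95.3 CPM in DMSO and 104.3 and 107.1 CPM in ACBI-1. The groups overlapped in MOLT-4 and not in DND-41. The log2 fold change was 0.13 ± 0.06 in DND-41 (edgeR adjusted p = 0.101, 95% interval from 0.01 to 0.25). The unadjusted edgeR p there was 0.0505, so an interval matched to that test would include 0. In MOLT-4 the log2 fold change was 0.06 ± 0.06 (adjusted p = 0.459, interval from -0.06 to 0.17). The MOLT-4 value turned to -0.02 with library size alone, to -0.02 without MOLT-4 DMSO replicate 2 and to -0.05 without both replicate 2 libraries.

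**Figure D2:**
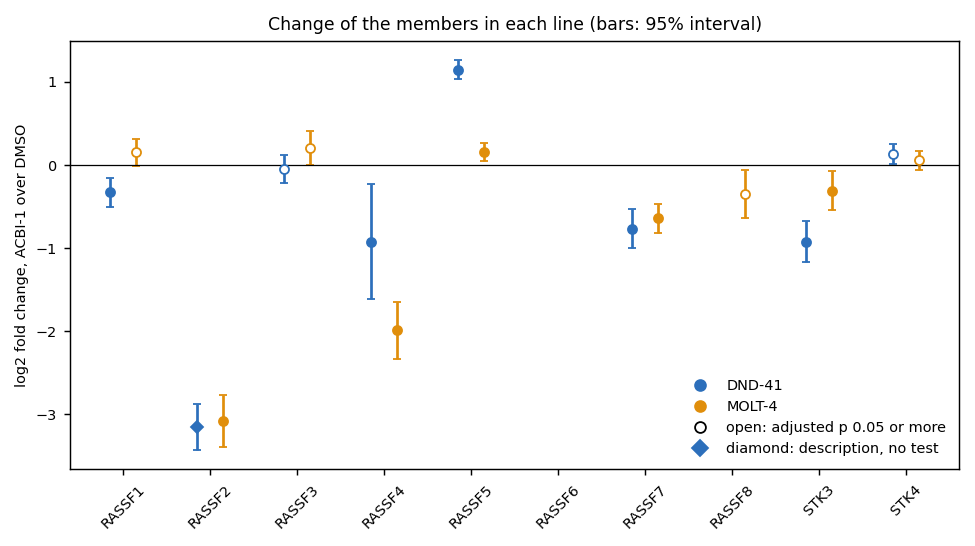
Log2 fold change of ACBI-1 over DMSO for each member in DND-41 (blue) and MOLT-4 (orange), with bars for the 95% interval. Filled points passed an adjusted p of 0.05 and the diamond has no test. RASSF2 lies near -3 in both lines, and RASSF5 lies at 1.15 in DND-41 and 0.16 in MOLT-4.

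Levels of different members were compared as CPM per kilobase (RPKM), over the union of a gene's exons. In DMSO, RASSF5 was the most abundant member in both lines, at 20.8 ± 0.45 RPKM (SD, n = 2) in DND-41 and 23.6 ± 0.085 RPKM in MOLT-4. STK4 followed at 11.6 ± 0.51 and 11.2 ± 0.93 RPKM. RASSF7 and RASSF1 came next, at 7.83 ± 1.35 and 7.40 ± 0.18 RPKM in DND-41, where their libraries overlapped, and 8.53 ± 0.072 and 6.86 ± 0.70 RPKM in MOLT-4. With the longest transcript as the length these 2 genes changed places in both lines. RASSF3 then stood at 5.63 ± 0.16 and 3.48 ± 0.49 RPKM, and RASSF2 at 3.72 ± 0.25 and 2.57 ± 0.26 RPKM. STK3, RASSF4, RASSF8 and RASSF6 were below 1 RPKM in both lines by exon union. By the longest transcript, STK3 was at 2.06 RPKM in DND-41 and 1.84 in MOLT-4, and in MOLT-4 RASSF8 was at 1.19 RPKM and RASSF4 was above it. Among these, RASSF4 at 0.899 RPKM and RASSF8 at 0.858 RPKM by exon union overlapped in MOLT-4.

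**Figure D3:**
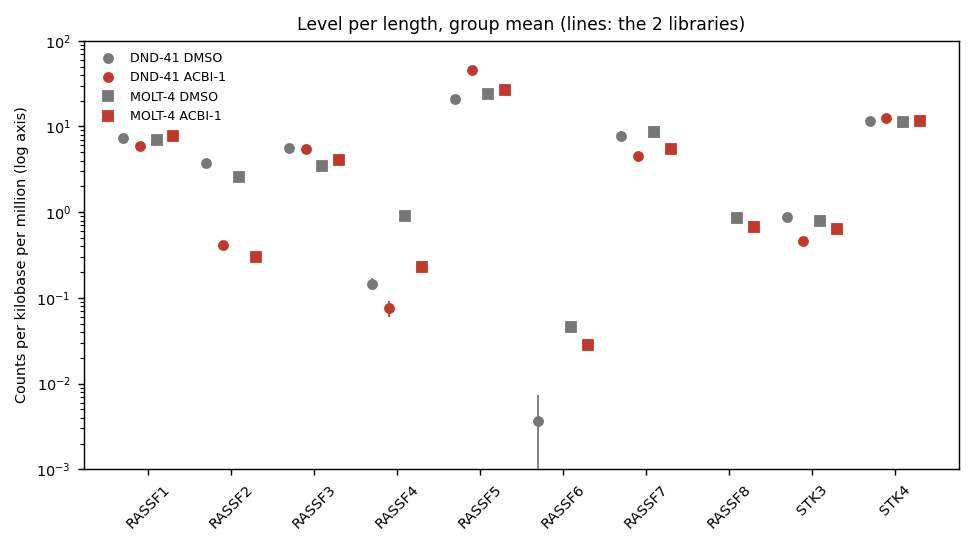
Group mean in RPKM (log axis) for each member, with lines that span the 2 libraries, circles for DND-41, squares for MOLT-4, grey for DMSO and red for ACBI-1. A group at 0 is not drawn. RASSF5 is highest in every group, and RASSF2 in DND-41 under ACBI-1 is near the level of STK3.

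Under ACBI-1 the family's RNA came to be made up more of RASSF5. Its share of the summed RPKM of RASSF1 to RASSF8 went from 45.7% ± 2.2 (SD, n = 2) in DMSO to 73.7% ± 0.019 in DND-41, and from 50.4% ± 0.15 to 59.0% ± 1.2 in MOLT-4. The treated libraries lay above the controls in both lines. The sum of the other 7 members went from 24.7 ± 1.6 to 16.3 ± 0.071 RPKM in DND-41 and from 23.2 ± 0.060 to 18.4 ± 0.092 RPKM in MOLT-4. These sums contain the RASSF2 values that led to the choice of the family and were not tested. STK4 made up 93.0% ± 0.26 of the summed RPKM of the 2 kinases in DND-41 DMSO libraries and 96.5% ± 0.099 in ACBI-1 libraries. In MOLT-4 it made up 93.5% ± 0.52 and 94.9% ± 0.069.

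Between the lines in DMSO, and besides RASSF8 and RASSF2, RASSF4 and RASSF5 were higher in MOLT-4 and RASSF3 was lower. Of the 15498 genes, 63.8% differed (33.2% higher, 30.7% lower). RASSF4 was higher in MOLT-4 by 2.62 ± 0.21 on the log2 scale (edgeR adjusted p = 1.95e-09). RASSF8, with 0 counts in DND-41, passed the filter through MOLT-4 and is not counted. RASSF5 was higher by 0.18 ± 0.06 (adjusted p = 0.00868), a call lost with library size alone (0.08, adjusted p = 0.375) and without DND-41 DMSO replicate 1 (0.16, adjusted p = 0.0916). RASSF3 was lower in MOLT-4, with a difference of -0.70 ± 0.10 (adjusted p = 7.90e-06). The RASSF2 difference was -0.53 ± 0.11. It rests on the DND-41 values of that gene and is given without a test. RASSF1, RASSF7, STK3 and STK4 did not pass, although RASSF7 did without DND-41 DMSO replicate 1 (0.31, adjusted p = 0.0250).

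Further genes of the pathway were read from lists that do not hold the members. The counts of calls in each list stand beside 20.0% of all tested genes that rose and 23.2% that fell in DND-41. In MOLT-4 these shares were 20.7% and 24.4%. In the Hippo kinase module, the partners of STK3 and STK4, 3 of 12 tested genes rose and 4 fell in DND-41. In MOLT-4, 3 of 13 rose and 4 fell, and the medians were -0.03 and -0.01. LATS2, among the MOLT-4 falls (-2.03, and -2.57 without the replicate 2 libraries), had 42 and 32 counts in DMSO and 7 and 10 in ACBI-1. It passed the count filter through its controls, so it could only be called as a fall. MOB1A, the adaptor that MST kinases phosphorylate to activate LATS and NDR kinases, fell in both lines, by a log2 fold change of -0.54 ± 0.06 in DND-41 (edgeR adjusted p = 3.06e-06) and -0.47 ± 0.07 in MOLT-4 (adjusted p = 1.20e-05). The NDR kinase STK38L rose by 0.50 in DND-41 and had no call in MOLT-4 (-0.18, edgeR adjusted p = 0.0529). FRMD6, an upstream scaffold, fell by a log2 fold change of -0.60 in DND-41 and -0.53 in MOLT-4. The MOLT-4 value of FRMD6 was -0.24 without the replicate 2 libraries. The upstream kinase TAOK3 fell by a log2 fold change of -0.31 in DND-41 and -0.41 in MOLT-4. With DESeq2, 0 genes of this list rose and 3 fell in MOLT-4. Without both replicate 2 libraries, TAOK2 went from 0.17 to 0.12 and PTPN14 from 0.67 to 0.47.

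Most genes of the output of the pathway, the YAP, TAZ and TEAD list, were not expressed enough to be tested. YAP1 was at or below 0.149 CPM in every library. Of 6 genes tested in DND-41, 1 rose and 1 fell. Over all genes, 20.0% rose and 23.2% fell in DND-41, and 20.7% and 24.4% in MOLT-4. AJUBA, a LATS inhibitor, rose by a log2 fold change of 1.16 ± 0.09 (edgeR adjusted p = 1.41e-07), and AMOTL2, an angiomotin that retains YAP, fell by 2.79 (adjusted p = 2.13e-07). Of 8 genes tested in MOLT-4, 0 rose and 5 fell, among them TEAD3 (-2.65) and AMOT (-0.70), and 3 fell with DESeq2. TEAD3 had 1.78 and 1.99 CPM in DMSO and 0.317 and 0.275 CPM in ACBI-1, so it passed the count filter through its controls. The same holds for AMOTL2 in MOLT-4, with 12 and 24 counts in DMSO and 2 and 4 in ACBI-1, so both could only be called as falls. CYR61 passed through the replicate 2 libraries, with 77 counts in DMSO and 15 in ACBI-1. Without the replicate 2 libraries, TEAD3 was at -2.48, AMOT at -0.64, AMOTL1 at -0.25 and AMOTL2 at -2.52. CYR61, a YAP target also abundant in stromal cells, had 3.82 and 0.825 CPM in the MOLT-4 replicate 2 libraries, DMSO then ACBI-1, against 0.210 and 0.159 CPM in replicate 1.

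The STRIPAK phosphatase complex, which dephosphorylates MST kinases, had 2 rises and 3 falls among 15 genes in each line. Of all genes, 20.0% rose and 23.2% fell in DND-41, and 20.7% and 24.4% in MOLT-4. TRAF3IP3, a lymphoid protein that binds the complex, fell by a log2 fold change of -1.41 ± 0.07 in DND-41 (edgeR adjusted p = 1.30e-09) and -1.93 ± 0.08 in MOLT-4 (adjusted p = 2.93e-13). PDCD10 also fell in both lines, by -0.46 and -0.35. SIKE1 and STRN4 rose by 0.32 and 0.17 in DND-41, and by 0.27 and 0.20 in MOLT-4. The MOLT-4 values were 0.22 and 0.20 without the replicate 2 libraries. Among other STE20 kinases, 1 of 12 rose and 7 fell in DND-41, with a median of -0.34, and 1 rose and 3 fell in MOLT-4, with a median of -0.10. With DESeq2, 0 rose and 2 fell in MOLT-4. STK39, called as a fall in MOLT-4 by edgeR (-0.21), was at -0.12 without the replicate 2 libraries. STK10, a lymphocyte kinase that phosphorylates ERM proteins, fell in both lines, by -0.60 in DND-41 and -0.48 in MOLT-4. The rise of SLK in MOLT-4 (0.19) was 0.12 without the replicate 2 libraries.

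Genes of RAS, RAP1 and integrin activation, the setting in which RASSF5 acts in lymphocytes, fell more often than they rose. Of 19 tested, 1 rose and 13 fell in DND-41, where 20.0% of all genes rose and 23.2% fell. In MOLT-4, 2 rose and 11 fell, where 20.7% of all genes rose and 24.4% fell. Their medians were -0.29 in both lines. ITGAL, the LFA-1 alpha chain, had a mean of 13.6 CPM in DMSO and 3.03 CPM in ACBI-1 in DND-41, and 169.4 and 26.3 CPM in MOLT-4. These falls had log2 fold changes of -2.15 ± 0.14 (edgeR adjusted p = 1.50e-08) and -2.69 ± 0.07 (adjusted p = 2.40e-16). FERMT3, the integrin activator kindlin-3, fell by -1.20 in DND-41, and its mean went from 171.4 to 78.0 CPM in MOLT-4. RASGRP2, the main RAP1 exchange factor of platelets and leukocytes, fell by -2.86 in MOLT-4. In DND-41 RASGRP2 had no call (-0.04, edgeR adjusted p = 0.675). RAPGEF1, another RAP1 exchange factor, rose by 0.29 in DND-41. It rose by 0.18 in MOLT-4, as did RAP1A by 0.26, and these values were 0.15 and 0.17 without the replicate 2 libraries.

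FOXO factors, which MST kinases phosphorylate, and FOXO1 targets of T cells moved in both directions. For all genes the shares were 20.0% higher and 23.2% lower in DND-41, and 20.7% and 24.4% in MOLT-4. In DND-41, 5 of 10 rose and 2 fell, with a median of 0.31, and in MOLT-4, 3 of 9 rose and 4 fell, with a median of -0.11 (2 fell with DESeq2). The homing receptor gene CCR7 fell in both lines, by a log2 fold change of -1.98 in DND-41 and from a mean of 2.63 to 0.135 CPM in MOLT-4, the latter from 2 and 3 counts, so that it passed the filter through its controls there. The BH3-only gene BCL2L11 rose in both, by 0.70 in DND-41 and 0.78 in MOLT-4. Of the partners of RASSF1 and RASSF2 in apoptosis and mitosis, 0 rose and 3 of 6 fell in each line. With DESeq2, 3 fell in DND-41 and 2 in MOLT-4. MOAP1, which joins RASSF1 to BAX, fell by a log2 fold change of -0.81 ± 0.11 in DND-41 (edgeR adjusted p = 2.40e-05) and -0.57 ± 0.10 in MOLT-4 (adjusted p = 1.32e-04). CDC20, a mitotic activator that binds RASSF1, fell by -0.27 and -0.44.

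**Figure D4:**
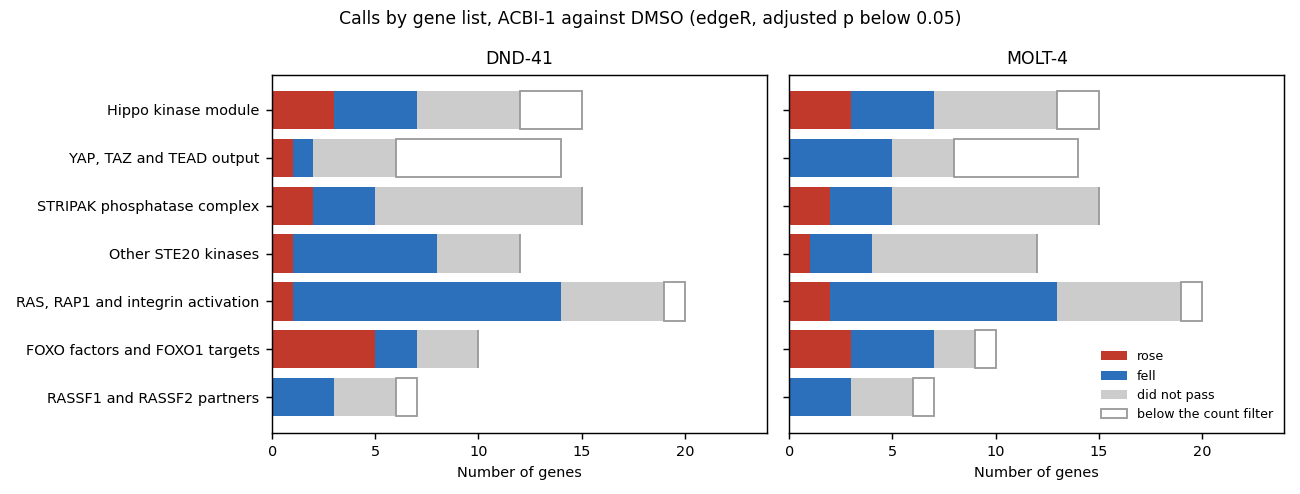
Number of genes in each pathway list that rose (red), fell (blue) or did not pass (grey) in DND-41 (left) and MOLT-4 (right), with genes below the count filter in white. The list of RAS, RAP1 and integrin activation has 13 falls in DND-41 and 11 in MOLT-4.

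The genes most like RASSF2 and RASSF5 over the 8 libraries were taken by Pearson's r of log2 CPM among 9662 genes with a mean of 5 CPM or more. The points share 4 groups, so r reflects group differences and is given as a description. ZBTB2, a zinc finger repressor, was most like RASSF2 (r = 0.998), with mean levels of 70.3 and 21.2 CPM in DND-41, DMSO then ACBI-1. FERMT3, PLK1, NDE1 and LRRC41 followed, with r from 0.993 to 0.995. The size of a change does not enter r. PLK1 went only from 409.8 to 313.1 CPM and LRRC41 from 110.4 to 85.5 CPM in DND-41. RGMA, a repulsive guidance molecule, was most like RASSF5 (r = 0.983), at 30.5 and 54.6 CPM in DND-41 and 30.5 and 36.4 CPM in MOLT-4. RANBP10, EGR1, BABAM1 and UBXN6 followed, with r from 0.966 to 0.979. Their changes differed in size, and BABAM1 went only from 28.2 to 32.2 CPM in DND-41. EGR1, an immediate early transcription factor, had 35.5 CPM in DMSO and 261.0 CPM in ACBI-1 in DND-41, and 39.8 and 83.0 CPM in MOLT-4.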

How the data were processed

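RNA was counted per gene in 8 libraries, and groups were taken from the labels. The deposited counts are whole numbers that were not normalized, and the submitters' processing notes name STAR 2.5.2a, featureCounts and the hg19 build. Neither the annotation nor the strand setting is given in the sources used here. The authors' own comparison of each line holds log2 fold changes, p-values and adjusted p-values, per the file headers, and the notes name DESeq2 1.12.4. These tables also hold, per the file headers, a mean signal of normalized counts and a test statistic, which is a score. Compared with the counts, 100% of the called genes in the authors' DND-41 table had the sign of ACBI-1 over DMSO and 0% in the MOLT-4 table, which reads the other way. No fold change of these tables is printed.

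Genes passed filterByExpr at its minimum count of 10. After TMM scaling, the quasi-likelihood F test of edgeR 4.0.16 (R 4.3.3) was run with treatment as the only term in each line, and as an interaction of treatment and line for the difference between lines. Adjusted p-values follow Benjamini and Hochberg. SEs were derived from the log2 fold change and the F statistic of this test, and 95% intervals are 1.96 SE either side. With so few libraries these intervals are narrower than the F test implies. The code was tested on simulated counts, where false calls were on average more frequent than the nominal rate in each comparison, so adjusted p-values near 0.05 carry less weight than their size says. Exon lengths came from GENCODE 29 (GRCh38), by identifier, and for RASSF5 by symbol.

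The members, lists and tests were chosen with earlier results of these data known. Named genes are all members, the degrader's targets, up to 2 rises and 2 falls per list and line with the smallest adjusted p, and the 5 genes most like RASSF2 and RASSF5. Of these, a choice is printed, and 1 gene that the rule takes is not reported here. YAP1, CYR61 and RASSF8-AS1 were named after their values were seen. Alternatives were other size factors, library size alone, no filter or a minimum count of 50, DESeq2 1.42.0, a fit with a replicate block, a fit of all 8 libraries together, an adjusted p of 0.01, and the omission of single libraries. Leaving out both MOLT-4 replicate 2 libraries was chosen after seeing the data.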

Additional observations from a re-analysis of the deposited data

Results flagged for a closer look

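The effect of ACBI-1 differed between the lines by the edgeR interaction test for 3 members, as MOLT-4 minus DND-41 on the log2 scale. For RASSF5 the difference was -0.97 (adjusted p = 1.03e-07), with a log2 fold change of 1.15 in DND-41 and 0.16 in MOLT-4. For RASSF1 it was 0.50 (adjusted p = 0.0138), with -0.33 in DND-41 and 0.16 in MOLT-4. For STK3 it was 0.63 (adjusted p = 0.0144), with -0.92 in DND-41 and -0.31 in MOLT-4. The RASSF1 and STK3 differences were lost in several alternatives named beside them, and their cause was not tested.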

How the results depend on the processing

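Of the alternatives, scaling by library size alone shifted the median of all genes by -0.12 for the difference between lines and by -0.10 for the DMSO lines. The members called lower in DND-41 (4 besides RASSF2) were 2 with DESeq2. The 1 member called higher in MOLT-4 became 0 with library size alone, with DESeq2, at a threshold of 0.01 and without both MOLT-4 replicate 2 libraries, and ran from 0 to 2 when single libraries were left out. The 2 members with a higher difference became 0 with library size alone, with DESeq2 and at 0.01, 1 without both replicate 2 libraries, and 1 to 2 without single libraries. The cause was not tested. Signs turned for values near 0. Over the fits without single libraries, RASSF3 in DND-41 ran from -0.14 to 0.040 (the latter without ACBI-1 replicate 1), PBRM1 in DND-41 from -0.034 (without ACBI-1 replicate 2) to 0.15, and STK4 in MOLT-4 from -0.019 (without DMSO replicate 2) to 0.15. STK4 in MOLT-4 was also -0.021 with library size alone and -0.052 without both replicate 2 libraries. Of the differences between lines, RASSF2 ran from -0.071 (without DND-41 ACBI-1 replicate 2; -0.031 without MOLT-4 DMSO replicate 2) to 0.28 and was -0.027 with library size alone, RASSF7 ran from -0.040 (without DND-41 DMSO replicate 1) to 0.31, and STK4 ran from -0.16 to 0.039 (without MOLT-4 DMSO replicate 1). Between the DMSO lines, STK4 ran from -0.14 to 0.044 (without MOLT-4 DMSO replicate 2) and was 0.045 without both replicate 2 libraries, and RASSF7 ran from -0.044 (without DND-41 DMSO replicate 2) to 0.31. With the longest transcript as length, 6 of 10 members kept their rank in each MOLT-4 group, and 4 (RASSF3, RASSF5, RASSF6 and STK4) in both.

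Over all genes, calls higher in DND-41 (2807) were 1734 with DESeq2, 1838 at 0.01, and 1745 and 1817 without DMSO replicates 1 and 2. Calls higher in MOLT-4 (2948) were 1781 with library size alone, 1771 with DESeq2 and 1357 without both replicate 2 libraries, and calls lower (3477) were 2264 and 2232 in the last 2. Higher differences (1112) were 499, 668 and 440 in these 3 alternatives, 619 at 0.01, and 730 and 699 without DND-41 or MOLT-4 DMSO replicate 2. Lower differences (956) were 637 with DESeq2, 504 without both replicate 2 libraries, 559 at 0.01, 634 without DND-41 DMSO replicate 1 and 621 without MOLT-4 ACBI-1 replicate 1.

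Replicate numbers were not taken as pairing, since deviations of same-numbered libraries correlated at 0.039 in DND-41 and 0.218 in MOLT-4 over 2 pairs. In MOLT-4 both replicate 2 libraries had the higher stromal and epithelial markers. Whether same-numbered libraries there share an origin was not tested. With the replicate block, 1 member was higher in each line, and 4 were lower in DND-41 besides RASSF2 and 4 in MOLT-4 with RASSF2. In that fit 2 differences were higher and 1 lower. Between the DMSO lines, 3 members (RASSF8 among them) were higher and 2 (RASSF2 among them) lower. Summing both identifiers of RASSF1 and RASSF5 changed no count. A lone library left in a group was assumed to vary like the others. About 0.15 CPM, or 3 counts, limits what can be said of RASSF6 and of RASSF8 in DND-41.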

Other observations

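The nearest tested protein-coding neighbours of the members were placed by GENCODE 29 and chosen after the values were seen. Some moved in the direction of their member and some did not. Of all tested genes, 43.2% were called in DND-41 and 45.1% in MOLT-4. PRNP, the prion protein gene 78.4 kb from RASSF2 on its lower-coordinate side, fell by a log2 fold change of -1.89 in DND-41 (edgeR adjusted p = 6.07e-08) and -0.71 in MOLT-4 (adjusted p = 2.00e-07). SLC23A2, a vitamin C transporter gene 28.7 kb away on the other side, rose by 0.31 (adjusted p = 0.00139) and 0.44 (adjusted p = 9.76e-07). DYRK3, a kinase gene 46.1 kb from RASSF5, fell by -0.86 in DND-41 (adjusted p = 4.42e-04) and -0.82 in MOLT-4 (adjusted p = 3.16e-07), where RASSF5 rose. PHRF1, 12.5 kb from RASSF7, fell by -0.35 and -0.33 (adjusted p = 3.87e-04 and 8.11e-05), as RASSF7 did. ZNF22, 4.58 kb from RASSF4, fell by -0.63 and -0.18, as RASSF4 fell.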
